A study of Caenorhabditis elegans with 2 samples.

Results

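UNC-3 is the only COE-family (Collier/Olf/Ebf) transcription factor of Caenorhabditis elegans and acts as a terminal selector of cholinergic motor neurons, that is, a factor that switches on, and keeps on, the genes for the mature features of a neuron type. COE factors bind DNA as dimers at short pseudo-palindromic sites in promoters and enhancers. An enhancer can lie far from the gene it controls, and a factor may occupy a locus at a single element or at several elements that stand side by side. The peaks described here are the solitary ones of chromosomes I, II, III and IV. They are intervals called as UNC-3 peaks, with no other listed interval within 10 kb on the left or on the right. They were chosen by the start and end coordinates of the called peaks, and a neighbour missing at the end of a chromosome was disregarded. This rule kept 690 of the 4390 peaks of these chromosomes, from a list of 6892 peaks in all, and the remaining 3700 peaks of the same chromosomes serve for comparison.

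The measurement was ChIP-Seq of UNC-3 in worms of strain OH13990, in which GFP follows UNC-3 at the endogenous unc-3 locus (allele ot839). Whole worms at larval stage L2, grown at 20 °C on OP50 bacteria, gave the chromatin, so that the signal is a mix over all cells that express UNC-3. The data analysed here came from 1 ChIP library, made with an anti-GFP antibody, and from 1 input library of genomic DNA from the same strain, which served the authors as background for the peak calls. The wild-type control immunoprecipitation mentioned in the methods was not analysed here. Without replicates no value below carries an error between samples. As the members were chosen from positions in the same list that holds their enrichment and width, all comparisons with the other peaks are descriptions, and no p-value was computed. Intervals in brackets are 95% intervals for counting error alone (Wilson for shares, and from the binomial distribution of ranks for medians), and they treat peaks as independent of one another. Positions are on the ce10 assembly, counted from 1. Genes, exons and introns of that assembly and its sequence were not used here, so the peaks are named by position only.

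Isolated peaks made up 15.7% (14.7 to 16.8%) of the peaks on the 4 chromosomes. The share was 14.8% on chromosome I (177 of 1193 peaks), 15.0% on chromosome II (155 of 1032) and 14.6% on chromosome III (162 of 1112). On chromosome IV it was 18.6% (16.4 to 21.1%), with 196 of 1053 peaks. Chromosome IV also had the sparsest peaks of the 4, at 60.2 per Mb against 67.6 to 80.7 per Mb on the others. Counted per length of DNA, isolated peaks were spread evenly, from 10.2 per Mb on chromosome II to 11.8 per Mb on chromosome III. Applied to the chromosomes left out, the same rule kept 19.9% of the peaks of chromosome V (51.0 peaks per Mb) and 14.2% of those of chromosome X (81.2 per Mb), or 10.1 and 11.5 isolated peaks per Mb.

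The rule sets the distance of an isolated peak to its nearest peak at 10 kb or more, so the distances below only describe the members. The distance to the nearest peak had a median of 17497 bp and quartiles of 12751 and 25892 bp, and the distance on the other, more open side had a median of 34612 bp. Within 50 kb of the summit, the base with the highest signal, an isolated peak had a median of 5 other peaks, against 9 for the other peaks. The rule itself lowers this number, yet the range was wide. For 36 members there was no other peak within 50 kb, a state closed to the other peaks, which by the rule have a neighbour within 10 kb. In contrast, 78 members (11.3%) had 10 or more, against 45.4% of the other peaks and 40.0% of all peaks of these chromosomes. These 78 members stood alone within a stretch that held many peaks farther out.

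At the limit of 10 kb the values of the peaks on either side were as follows. Just inside lay a peak on chromosome III at 9467053 to 9467417, 10034 bp from its neighbour and enriched 5.66-fold. The next was on chromosome III at 9765180 to 9766192, with a distance of 10045 bp and an enrichment of 32.8-fold. Another lay on chromosome II at 14233810 to 14234270, 10067 bp from its neighbour and enriched 4.99-fold. Just outside were 2 neighbouring peaks of chromosome IV, at 473743 to 474132 and at 484112 to 484544, which lay 9979 bp apart and were enriched 4.82-fold and 6.85-fold. A peak of chromosome I at 328404 to 328704 had its neighbour at 9974 bp and was enriched 4.13-fold. The strengths on both sides of the limit overlapped.

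UNC-3 enrichment at isolated peaks spanned nearly the whole range of the list, but lay lower on average. The fold enrichment, the ChIP fragments over the summit relative to those expected from the background (1 is added to each count), had a median of 5.86 (5.64 to 6.32) at isolated peaks and 6.99 (6.82 to 7.25) at the other peaks. The quartiles were 4.13 and 9.98 at isolated peaks, and 4.33 and 12.9 at the others. The lower median was present on each of the 4 chromosomes: 5.99 against 7.18 on chromosome I, 6.32 against 6.99 on II, 5.81 against 7.02 on III, and 5.82 against 6.75 on IV. Within single chromosomes, however, the intervals of these medians overlapped on I, II and IV and met on III. The groups were farther apart in the upper part of the distribution. An enrichment of 10-fold or more was reached by 170 isolated peaks, or 24.6% (21.6 to 28.0%), against 33.9% (32.4 to 35.4%) of the other peaks and 32.4% of all peaks of these chromosomes. One of 20-fold or more was reached by 45 isolated peaks (6.52%) and by 11.8% of the others. At the lower end the groups were alike, with 4.20% of the isolated peaks and 4.43% of the others enriched less than 3-fold.

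**Figure D1:**
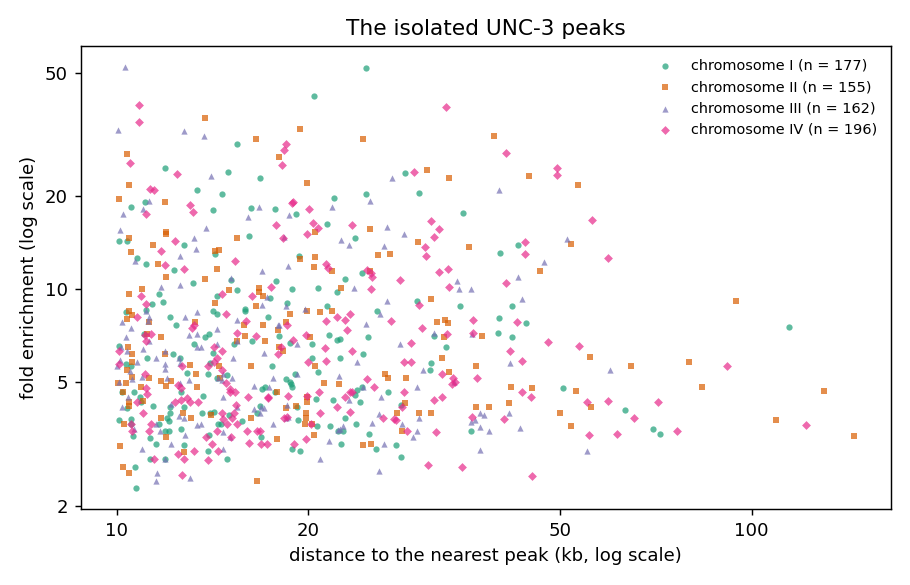
Fold enrichment of each isolated UNC-3 peak (vertical axis, log scale) against the distance to its nearest peak in kb (horizontal axis, log scale), with 1 point per peak and a colour and marker for each chromosome. Peaks of all 4 chromosomes cover enrichments from 2.28-fold to 52.2-fold, and the points thin out beyond 50 kb, where 34 peaks lie and 5 of them reach 10-fold.

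The number of fragments behind these values can be recovered, because only 1 pairing of pileup (the fragments covering the summit) and expected background gives the listed fold enrichment and p-value. All 690 isolated peaks had a solution. The median pileup was 38 fragments (lowest 15, highest 329), whereas that of the other peaks was 45 (lowest 14, highest 499). The 170 members enriched 10-fold or more had at least 60 fragments each. The median −log10 q-value was 17.6 at isolated peaks and 23.8 at the others. A q-value at or below 1e-5 was found for 92.9% of the isolated peaks and 93.1% of the others, and one at or below 1e-10 for 69.7% and 74.1%. The largest q-value of a member was 0.00548. Most isolated peaks thus had q-values far below the largest in the list.

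The strongest isolated peak lay on chromosome III at 10758737 to 10759659, with its summit at 10759146. It was enriched 52.2-fold, with 322 fragments against an expected 5.19, and its neighbours, 10326 bp to the left and 46991 bp to the right, were both enriched 14.6-fold. Only 1 other peak of the 4 chromosomes exceeded this enrichment. The next, on chromosome I at 12039428 to 12040394, was enriched 51.8-fold with 329 fragments, and lay 74079 bp from a 6.17-fold peak and 24691 bp from a 20.4-fold peak. It had only 1 other peak within 50 kb. A second strong member of chromosome I, at 9343466 to 9344504, was enriched 42.0-fold with 258 fragments, and in contrast had 14 other peaks within 50 kb. Enrichment of this strength was thus found both in empty and in crowded surroundings.

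Chromosome IV held the next pair of strong members. The peak at 14272296 to 14273236 was enriched 39.3-fold with 255 fragments, and its left neighbour, 10840 bp away at 14260489 to 14261455, was itself a member, enriched 34.6-fold with 207 fragments. The stretch to the left of this neighbour held no peak for 131810 bp, and the one to the right of the first none for 53640 bp. These 2 intervals therefore formed a pair of strong peaks in a region otherwise without peaks. The member on chromosome IV at 14032387 to 14034769 was enriched 38.7-fold with 267 fragments and was unusually wide, at 2383 bp. On chromosome II the strongest member lay at 10527317 to 10528122, enriched 35.6-fold with 231 fragments, among 17 other peaks within 50 kb. Of the 45 members with 20-fold enrichment or more, 11 were on chromosome I, 13 on II, 7 on III and 14 on IV.

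The weakest members were called over a raised background or with few fragments. The lowest enrichment was 2.28-fold, on chromosome I at 9821703 to 9822465, where 46 fragments stood against an expected 19.6. It lay 22837 bp from a 34.1-fold peak. On chromosome III, the peak at 4849798 to 4850352 was enriched 2.39-fold with 16 fragments against 6.10. On chromosome II, the peak at 14993431 to 14993734 was enriched 2.41-fold with 35 fragments against 14.0. Where the background was at its lowest value in the list, 5.01 fragments, the isolated peak with the fewest fragments had 15 (2.66-fold), and the other peak with the fewest had 14 (2.50-fold). Over a raised background more fragments were needed for a call. A stretch without a peak is therefore one without a called peak, not one shown to be free of UNC-3.

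Enrichment by distance to the nearest peak is a description over the peaks of 1 library, and the distances come from the rule. Peaks 0.5 to 1 kb from the nearest had the highest median, 7.65-fold (7.13 to 8.32). Between 2 and 5 kb it was 6.99-fold, and between 5 and 10 kb, still short of the limit, it was already 6.15-fold (5.82 to 6.82). Isolated peaks at 10 to 20 kb had a median of 5.82-fold (5.32 to 6.49). Those at 20 to 50 kb were at 6.50-fold (5.66 to 7.20), so that enrichment did not fall steadily with distance, and their interval overlapped that of the class before. The 34 members whose nearest peak was 50 kb or more away had the lowest median, 4.52-fold (3.83 to 5.66), with 14 of them on chromosome II and 12 on chromosome IV. The share enriched 10-fold or more followed the same course, from 38.9% at 0.5 to 1 kb to 22.3% at 10 to 20 kb, 30.1% at 20 to 50 kb and 14.7% (6.45 to 30.1%) beyond.

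**Figure D2:**
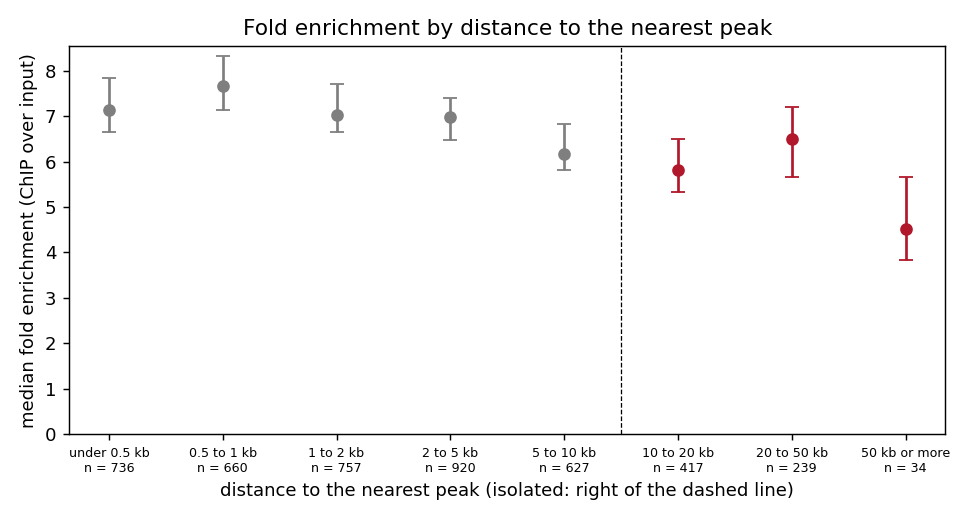
Median fold enrichment of the peaks of chromosomes I to IV (vertical axis) in classes of the distance to the nearest peak (horizontal axis), with bars for the 95% interval of the median. The 3 classes of isolated peaks, to the right of the dashed line, lie at 5.82, 6.50 and 4.52, and the 5 classes of other peaks between 6.15 and 7.65.

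The 5 most distant members were of low to moderate strength. The peak farthest from any other lay on chromosome II at 1808118 to 1808509, enriched 3.36-fold with 21 fragments, 144847 bp from its left and 250470 bp from its right neighbour. That right neighbour, at 2058980 to 2059354, ranked next, enriched 4.69-fold with 32 fragments and with another 130100 bp without a peak on its far side. The third, on chromosome IV at 16254500 to 16254814, was enriched 3.65-fold with 23 fragments and had 121955 bp free on the left and 128325 bp on the right. The fourth, on chromosome I at 13161791 to 13162433, was the strongest of the 5, enriched 7.52-fold with 50 fragments, and 114515 bp from its nearest peak. The fifth, on chromosome II at 12494490 to 12494856, was enriched 3.79-fold with 29 fragments, 109360 bp from its nearest peak.

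Isolated peaks were narrower than the other peaks. Their width had a median of 464 bp (450 to 479 bp), with quartiles of 370 and 593 bp, whereas the other peaks had a median of 530 bp (524 to 539 bp) and quartiles of 412 and 695 bp. The medians on chromosomes I to IV were 434, 474, 450 and 479 bp at isolated peaks, and 538, 535, 527 and 522 bp at the others. Since weaker peaks are narrower, width was also compared within 4 equal classes of fold enrichment. In the class of lowest enrichment, up to 4.32-fold, the medians were 336 bp (326 to 348 bp) at isolated peaks and 348 bp (342 to 355 bp) at the others. In the second class, up to 6.82-fold, they were 425 bp (408 to 433 bp) and 452 bp (447 to 459 bp), and in the third, up to 12.5-fold, 520 bp (503 to 540 bp) and 561 bp (553 to 570 bp). In the class above 12.5-fold they were 741 bp (690 to 792 bp) and 769 bp (754 to 785 bp). Within these classes, the median width of the isolated peaks was thus lower by 12 to 41 bp. The intervals did not meet in the second and the third class and overlapped in the lowest and the highest. Whether enrichment was alike in both groups inside a class was not tested.

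**Figure D3:**
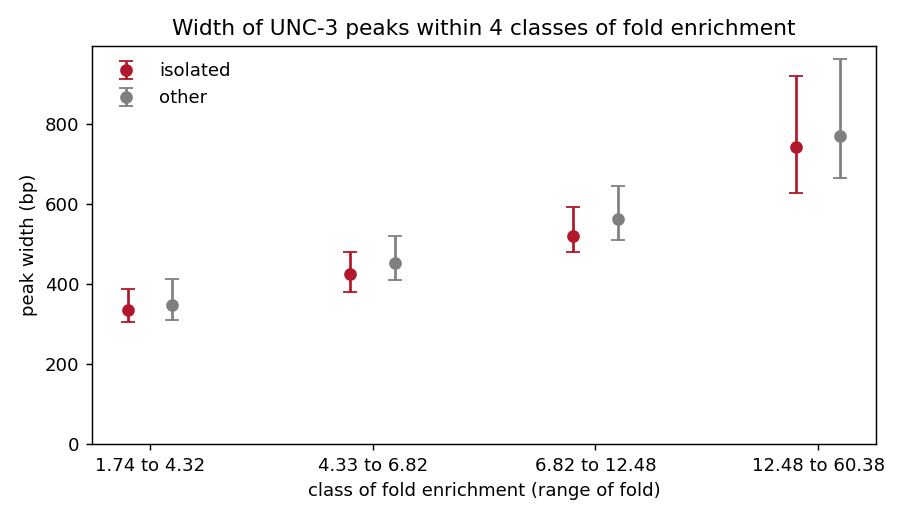
Peak width in bp (vertical axis) within 4 equal classes of fold enrichment (horizontal axis, with the range of each class), as medians with bars from the first to the third quartile. In all 4 classes the median of the isolated peaks lies below that of the other peaks, by 41 bp in the third class and by 12 bp in the first, while the quartile ranges overlap.

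A small number of isolated intervals were broad. Of the 690 members, 35 (5.07%) were wider than 1000 bp and 10 (1.45%) wider than 2000 bp, compared with 7.51% and 0.946% of the other peaks. The widest were all on chromosome III. The first, at 5352969 to 5358685, was 5717 bp wide and enriched 8.16-fold, and its summit lay 1946 bp from the centre of the interval. The next, at 2497063 to 2501928, was 4866 bp wide and enriched 7.70-fold. The third, at 8443346 to 8447534, was 4189 bp wide and enriched 15.8-fold, with 94 fragments against the genome-wide background of 5.01. At the other extreme, 23 members (3.33%) had the smallest width in the list, 291 bp. This was close to the share among the other peaks, 2.46%, and among all peaks of these chromosomes, 2.60%.

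The summit lay close to the centre in most isolated peaks. The median distance between them was 24 bp. A summit no more than 50 bp from the centre was found in 560 of 690 isolated peaks, or 81.2% (78.1 to 83.9%). For the other peaks the share was 73.5% (72.1 to 74.9%). Isolated peaks were ahead on each chromosome, with 83.6%, 83.2%, 79.0% and 79.1% on chromosomes I to IV against 74.3%, 72.4%, 73.9% and 73.4%. The intervals of these shares were separate on chromosomes I and II and overlapped on III and IV. Wide intervals had off-centre summits in either group, with 30.4% of the isolated and 30.0% of the other peaks over 800 bp centred. Between 601 and 800 bp the shares were 69.1% and 69.2%. In the narrower classes the share was higher at the isolated peaks, but the intervals met or overlapped in each. At widths of 451 to 600 bp it was 96.6% (93.1 to 98.3%) against 91.6% (89.8 to 93.1%). At 351 to 450 bp it was 88.7% against 86.4%, and at 350 bp or less 82.0% (74.6 to 87.6%) against 73.8% (69.9 to 77.4%).

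Along the chromosomes, isolated peaks were less concentrated in the centre than the other peaks. The rule itself favours places where listed peaks are sparse, so the shares below describe the arrangement only. C. elegans autosomes have a gene-dense central region flanked by arms that are richer in repeats, and the position was measured here on the span from the first base to the last peak. The middle of 3 equal parts held 214 isolated peaks, 31.0% (27.7 to 34.6%), which is close to an even spread, and 45.6% (44.0 to 47.2%) of the other peaks. On chromosomes I, II and III between 27.2% and 30.3% of the isolated peaks lay there. On chromosome IV the share was 35.7% (29.3 to 42.6%), against 43.5% (40.2 to 46.9%) of its other peaks, with intervals that overlapped. Read the other way, 11.3% (9.91 to 12.8%) of the peaks in the middle part were isolated and 19.1% (17.6 to 20.7%) of those outside it. The first of the 3 parts held 36.7% of the isolated and 24.6% of the other peaks, and the last 32.3% and 29.8%. With each chromosome divided into 10 equal bins, the share of peaks that were isolated was highest in bin 1, at 28.2% (23.4 to 33.5%), and lowest in bin 7, at 8.61% (6.61 to 11.2%). Bin 1 held 298 peaks in all, and bin 7 held 592. The highest share on a single chromosome was 47.2%, in bin 2 of chromosome II, where 17 of 36 peaks were isolated. A high share was also found in the middle part, at 27.5% in bin 6 of chromosome IV (30 of 109 peaks).

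The median enrichment of the isolated peaks was the lower one in both regions. In the middle part it was 5.78-fold (5.32 to 6.49) against 6.70-fold (6.32 to 7.03) for the other peaks, with intervals that overlapped. Outside the middle part it was 5.99-fold (5.52 to 6.65) against 7.27-fold (6.92 to 7.58), with intervals that did not meet. Of the 170 members enriched 10-fold or more, 28.2% (22.0 to 35.4%) lay in the middle part, and of the 520 weaker members 31.9% (28.1 to 36.0%). The members farthest from other peaks were nearly all outside it: of the 34 with no peak within 50 kb of either edge, 2 were in the middle part.

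**Figure D4:**
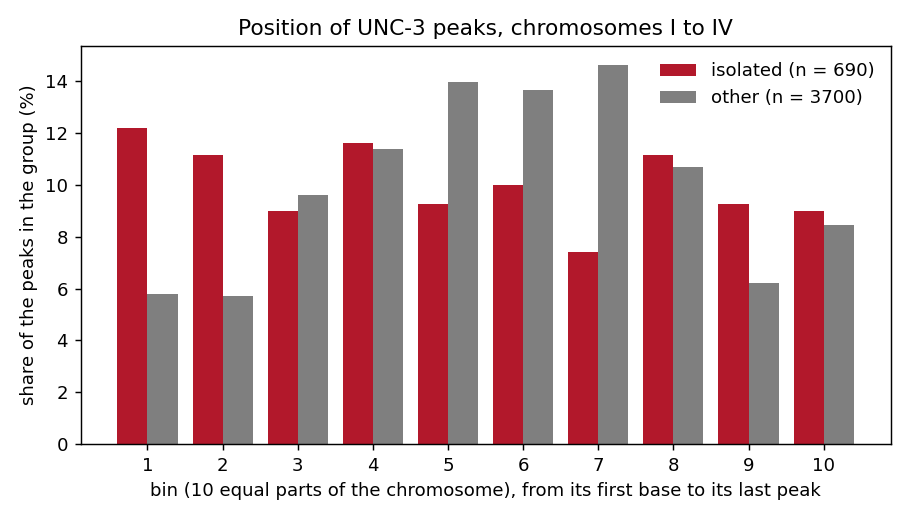
Share of the 690 isolated and of the 3700 other peaks (vertical axis, %) in each of 10 equal bins of the chromosome (horizontal axis), summed over chromosomes I to IV. Isolated peaks take between 7.39% and 12.2% in each bin, while the other peaks take 5.78% in bin 1 and 14.6% in bin 7.

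The neighbours of an isolated peak were often isolated too, which the rule itself favours, since each such neighbour already has 10 kb or more free on 1 side. The counts below are a description of the arrangement only. Of the 688 members with a neighbour on both sides, 143 (20.8%) had an isolated peak on each side, 331 (48.1%) on 1 side, and 214 (31.1%) on neither. Seen as runs of consecutive isolated peaks, 215 members stood alone between peaks that were not isolated, 182 came in runs of 2 and 138 in runs of 3. The longest runs held 10 members each and were picked out after their values were seen. On chromosome II, 10 isolated peaks followed one another from 3076874 to 3503074, over 426 kb, with enrichments from 3.15-fold to 30.5-fold. Members of very different strength stood side by side there: the strongest (30.5-fold, 201 fragments, at 3265389 to 3266199) was followed by one of 3.15-fold, and a further one reached 21.7-fold with 172 fragments. On chromosome IV, 10 isolated peaks covered 414 kb from 2118657 to 2532421, between 3.80-fold and 27.4-fold, with a median of 9.22-fold. In that run 5 members were enriched 10-fold or more, and the strongest, at 2219083 to 2220001, had 194 fragments.

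**Figure D5:**
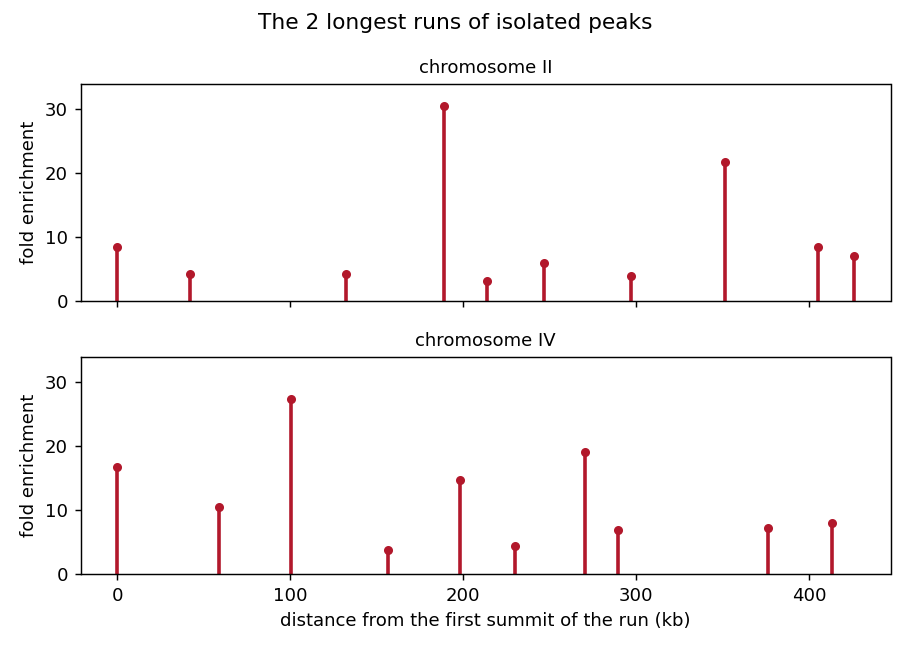
Fold enrichment (vertical axis) of the 10 peaks in each of the 2 longest runs of isolated peaks, on chromosomes II and IV, against the distance in kb from the summit of the first peak of the run (horizontal axis), with 1 stem per peak. On chromosome II 2 peaks, of 30.5-fold and 21.7-fold, stand above the rest, and on chromosome IV 5 peaks exceed 10-fold.

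The peak nearest to an isolated peak had a median enrichment of 5.99-fold, against 7.15-fold for the peak nearest to one of the other peaks. An isolated peak was the stronger of itself and its nearest neighbour in 47.2% of cases (43.5 to 51.0%). The share was close to this at the other peaks, 49.0% (47.4 to 50.6%), and over all peaks of these chromosomes, 48.7%. Among peaks that are nearest to each other only the stronger of the pair can count, which limits what these shares can show. Isolated peaks exceeded both of their neighbours in 29.0% of cases and lay below both in 33.8%. The other peaks exceeded both in 33.8% and lay below both in 32.8%.

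The background expected at the summit, which the caller takes from the input library and never sets below a genome-wide value, was at that lowest value of 5.01 fragments for 44.6% (41.0 to 48.4%) of the isolated peaks and 49.2% (47.6 to 50.8%) of the others. This order held on chromosomes I, II and III and was the opposite on chromosome IV, with 51.5% of the isolated and 47.4% of the other peaks. The intervals were separate on chromosome I only, and overlapped on II, III and IV and over all 4 chromosomes. With chromosome I left out, the shares were 47.2% and 48.9%. A background above 7.10 fragments, the 95th percentile of the whole list, was found at 41 isolated peaks (5.94%) and 4.78% of the others. Among peaks at the lowest background, the median enrichment was 5.66-fold at the 308 isolated and 6.49-fold at the 1821 other peaks. That comparison was added after the data were seen, and a part of the background in the lower enrichment was not tested. The highest backgrounds of members were all on chromosome III, and the first of them was at 1299560 to 1303084, with 160 fragments against an expected 28.3 (5.49-fold). It was followed by 1017243 to 1020748, with 114 against 27.0 (4.11-fold), and by 7594578 to 7596622, with 68 against 27.0 (2.47-fold).

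Among the members 2 lay at the end of the listed peaks of their chromosome and had a neighbour on 1 side only. On chromosome IV the interval from 1 to 321, which begins with the first base, was enriched 4.32-fold with 25 fragments, and its neighbour was 71196 bp away. On chromosome III the last listed peak, at 13783385 to 13783700, was enriched 5.74-fold with 50 fragments against an expected 7.88, and lay 11926 bp from the peak before it.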

How the data were processed

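ChIP-Seq for UNC-3::GFP and its input were analysed from the peak list that the authors deposited. Unique reads were mapped by the authors to ce10 with bowtie2 and peaks called with MACS2 against the input (versions not given in the sources used here). The q-value cutoff is stated differently in the methods and the results. Per the file headers, the deposited columns hold positions, fold enrichment, −log10 p-values and q-values, and a score that the authors derived from the −log10 q-value, which was not used here.

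Distances between the edges of neighbouring peaks on chromosomes I to IV were obtained with pandas 2.3.3 and numpy 2.4.6 under Python 3.11.15, intervals with scipy 1.17.1 and statsmodels 0.14.6, and figures were drawn with matplotlib 3.10.9. Pileup and background were solved from fold enrichment and p-value with a pseudocount of 1, with a tolerance of 0.001 on the −log10 p-value, and a background within 0.5% of 5.01 fragments was taken as genome-wide. The computation was tested on simulated data. Total read depth is not held by the list, and the precision of a value rests on its pileup.

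No test was run, since there was 1 library and the members were chosen by their positions. The members, the comparisons and the rule for naming peaks (the strongest, weakest, most distant, widest and highest-background members, the strongest of each chromosome, and those next to the limit) were chosen with earlier results of these data known. Alternatives were other distance limits, stricter q-values, distances between summits, and leaving out end peaks. Gene positions and sequence on ce10 were not used here.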

Additional observations from a re-analysis of the deposited data

How the results depend on the processing

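No paired analysis was possible because there are no replicates to pair: a single ChIP library was set against its input. In all 69 alternative values were computed, and 14 of them lay outside the 95% interval of the value in the report. In the 59 that compare isolated with other peaks, the order of both groups was kept each time. The share of isolated peaks was 30.0% with a limit of 5 kb, 6.22% with 20 kb, 17.2% among peaks with q-values at or below 1e-5 and 22.5% at 1e-10, as follows from fewer peaks or another distance. At 1e-10 the median enrichment of isolated peaks was 7.89-fold (9.48-fold for the others), their median width 529 bp (594 bp) and their share in the middle part 34.8% (45.1%). That share was 36.4% at 5 kb, 22.7% at 20 kb, and 47.8% when the middle part was widened to the central 2 of 4 equal parts (65.9% for the others). The summit was near the centre in 84.2% at 20 kb, and in 92.6% with a window of 100 bp (88.9% for the others). The share at the genome-wide background was 38.8% at 20 kb. Among peaks at that background the median width was 436.5 bp (504 bp). Leaving out each chromosome, and the comparisons within parts of the chromosome or at the genome-wide background, were added after the data were seen. Leaving out any chromosome kept each of the 6 values within its interval. Depth could not be varied with a peak list.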

Other observations

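The 10 isolated intervals wider than 2000 bp were unevenly placed, with 7 on chromosome III, 3 on chromosome IV and 0 on chromosomes I and II. The 35 equally wide intervals among the other peaks lay on all 4 chromosomes, with 14 on I, 8 on II, 5 on III and 8 on IV. At 8 of the 10 isolated ones the expected background exceeded 7.10 fragments (95th percentile of all listed peaks), against 15 of the 35 others, and 2 of the 10 were enriched 10-fold or more, against 20 of the 35. The exceptions with a background below that percentile were the intervals on chromosome III at 8443346 to 8447534 (15.8-fold) and on chromosome IV at 14032387 to 14034769 (38.7-fold). A raised background was thus found at most of these wide members, but among them it did not rise with width. It was 12.6 fragments at the widest (5717 bp) and 27.0 at the narrowest (2045 bp). Whether the background has a part in their width was not tested.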
